A study of Mus musculus with 2 samples.

Results

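Bgn, Spint2, Mustn1, Lrg1, Bst1, Cytl1, Ctsh and Serping1 are 8 of the 31055 features counted in blood endothelial cells (BECs) of mouse tumors. They were chosen by their level: each was picked because its transcripts were high where those of Nr2f2 were high, and all 8 symbols were found in the feature lists of both libraries. That their levels were high in venule cells is therefore a description of the choice and not a result. The account below gives how the 8 genes differed from one another, where else in the tumor they were detected, and how they were spread over the cells of the venule class.

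BECs were sorted from orthotopic tumors of wild-type female C57BL6 mice aged 6 weeks, 10 days after 100000 KPC or PyMT tumor cells were implanted. KPC is a pancreatic ductal adenocarcinoma line, and PyMT is a mammary cancer line from mice that carry the polyoma middle T antigen. Digested tumors were depleted of cells that carry CD45, EpCAM, Ter119, podoplanin or Annexin V before the sort, and 1 droplet-based single-cell library was made per tumor model. The number of mice behind a library is not given in the sources used here, so tumor model, tumor site, mice, library and depth cannot be told apart in any comparison of KPC with PyMT. With 1 library per group no test was possible and no p-value is given. All intervals are exact 95% intervals and cover counting error only.

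Nr2f2 encodes COUP-TFII, an orphan nuclear receptor that specifies venous identity in endothelium and restrains arterial genes. Post-capillary venules are the vessel segment where circulating leukocytes adhere and leave the blood, with the help of P-selectin (Selp) and of the chemokine-binding receptor encoded by Ackr1. The 8 genes have unlike roles. Bgn (biglycan, a small leucine-rich proteoglycan of the extracellular matrix), Lrg1 (a secreted leucine-rich glycoprotein that modifies TGF-β signaling in vessels) and Cytl1 (a small secreted cytokine-like protein) are released from the cell. Spint2 (a membrane-anchored Kunitz-type inhibitor of serine proteases) and Serping1 (the C1 inhibitor, a serpin that restrains complement and the contact system) block proteases. Ctsh is a lysosomal cysteine protease, Bst1 (CD157) is a surface ectoenzyme that acts on NAD, and Mustn1 is a small nuclear protein named from the musculoskeletal system.

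The genes lie on 7 chromosomes of GRCm38 in the GENCODE M21 annotation, with Bst1 (chr5:43818885-43843986) and Cytl1 (chr5:37735519-37739820) both on chromosome 5. Lrg1 spans chr17:56119678-56122001 on the minus strand, Mustn1 spans chr14:30879200-30881610 on the plus strand, and Bgn spans chrX:73483602-73495933 on the plus strand. Spint2 lies at chr7:29256323-29281912 and Serping1 at chr2:84765387-84775444, both on the minus strand, and Ctsh at chr9:90054152-90076089 on the plus strand. Bst1 overlaps the counted gene Fbxl5 on the other strand, so its counts are certain only if the counting used strand. RefSeq promoter windows of GRCm38.p6, from 250 bases before to 50 bases after the RefSeq start, were at hand for 5 of the 8 genes (Bgn, Spint2, Mustn1, Lrg1 and Cytl1).

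Since all 8 genes were picked for following the transcript of a nuclear receptor, the windows were searched on both strands for the nuclear receptor core motif AGGTCA, which 16.3% of all 32851 promoter windows hold, and none of the 5 windows held it. None held the STAT motif TTCNNNGAA (8.30% of windows) or the AP-1 motif TGANTCA (7.81%) either. The ETS motif ACTTCC (23.8%) was matched 3 times in Mustn1 and 1 time in Lrg1. The SP motif GGGCGG (35.7%) was matched 3 times each in Spint2 and Bgn and 1 time in Cytl1. TATAAA (13.6%) was matched in Lrg1, 12 bases after the RefSeq start, and the E-box CANNTG (72.3%) was matched in all but Mustn1. The bases of these windows that lie before both the RefSeq and the GENCODE start are printed for Lrg1 and Mustn1, whose highest blood vessel level was in venule cells, and for Cytl1, whose highest level was in artery cells. Capitals mark ETS matches in Lrg1 and Mustn1, of which the match of Mustn1 nearest to the start lies past the printed bases, and the SP match in Cytl1. They lie at chr17:56122002-56122196 (minus strand), chr14:30879007-30879199 (plus strand) and chr5:37735269-37735518 (plus strand). These matches describe letters and do not show that a factor binds there.
Lrg1: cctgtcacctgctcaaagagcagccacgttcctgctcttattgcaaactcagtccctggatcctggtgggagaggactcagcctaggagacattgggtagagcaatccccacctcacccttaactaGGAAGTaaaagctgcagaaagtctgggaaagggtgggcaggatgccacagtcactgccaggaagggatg
Mustn1: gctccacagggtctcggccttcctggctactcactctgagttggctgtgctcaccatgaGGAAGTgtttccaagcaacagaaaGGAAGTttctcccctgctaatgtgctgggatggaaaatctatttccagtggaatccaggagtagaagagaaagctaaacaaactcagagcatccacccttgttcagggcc
Cytl1: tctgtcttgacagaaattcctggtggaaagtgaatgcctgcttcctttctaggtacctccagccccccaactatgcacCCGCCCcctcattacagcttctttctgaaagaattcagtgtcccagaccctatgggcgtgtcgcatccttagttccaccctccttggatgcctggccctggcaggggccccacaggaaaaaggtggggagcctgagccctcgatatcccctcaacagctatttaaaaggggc

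Barcodes were kept if they held 500 genes or more and if mitochondrial transcripts made up less than 10% of their UMIs, where a unique molecular identifier (UMI) stands for 1 captured transcript. This left 9591 cells in KPC (median 3141 UMIs) and 11744 in PyMT (median 3978 UMIs), and 151 barcode sequences were kept in both libraries. Each cell was given the first class whose summed UMIs reached a threshold, in the order tumor, fibroblast, lymphatic, pericyte, venule, artery, tip, capillary and, for the rest, other. The venule class (at least 3 UMIs of Ackr1 and Selp) held 640 KPC and 360 PyMT cells, and the artery class (at least 2 UMIs of Gja5 and Sema3g) held 105 and 126 cells. Of venule markers that the rule did not use, 6 of 8 were highest in the venule class among the 5 blood vessel classes of either library, and 8 of 8 artery markers were highest in the artery class. Of capillary markers, 6 of 8 were highest in the capillary class in KPC but 0 of 8 in PyMT. Their sum was 4842 CPM in the PyMT capillary class, against 3384 to 4056 CPM in the other blood vessel classes. The PyMT class, set by the 2 genes Car4 and Cd300lg, is therefore less clearly capillary than that of KPC. Of tip markers, 6 of 8 were highest in the tip class in KPC and 3 of 8 in PyMT. Doublets were not removed, and 142 of 640 KPC and 189 of 360 PyMT venule cells also met the rule of a later class. Levels are given as CPM, the UMIs of a gene summed over a class and scaled to the same total in every class. They are compared between classes, not between genes.

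The venule class was the highest class for some of the 8 genes and not for others. Among the 5 blood vessel classes, the venule interval lay wholly above those of artery, tip, capillary and other cells for 4 of 8 genes in KPC (Spint2, Mustn1, Lrg1 and Bst1) and for these and Bgn in PyMT, 5 of 8. The same held for 1.54% of 10969 genes in KPC and 1.49% of 11390 in PyMT, but the rule used this contrast and nothing is read from the excess. Over all 9 classes, the highest level was in lymphatic, pericyte, fibroblast or tumor cells for 5 genes in KPC and 4 in PyMT, against 59% and 68.3% of all genes. Counting the artery class too, 6 and 5 genes were highest outside the venule class (94.6% and 92.4% of all genes). These counts over all 9 classes lie near or under the shares of all genes and are not read as particular to the 8 genes. Lrg1 and Bst1 were the 2 genes whose highest class was venule in both libraries.

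**Figure D1:**
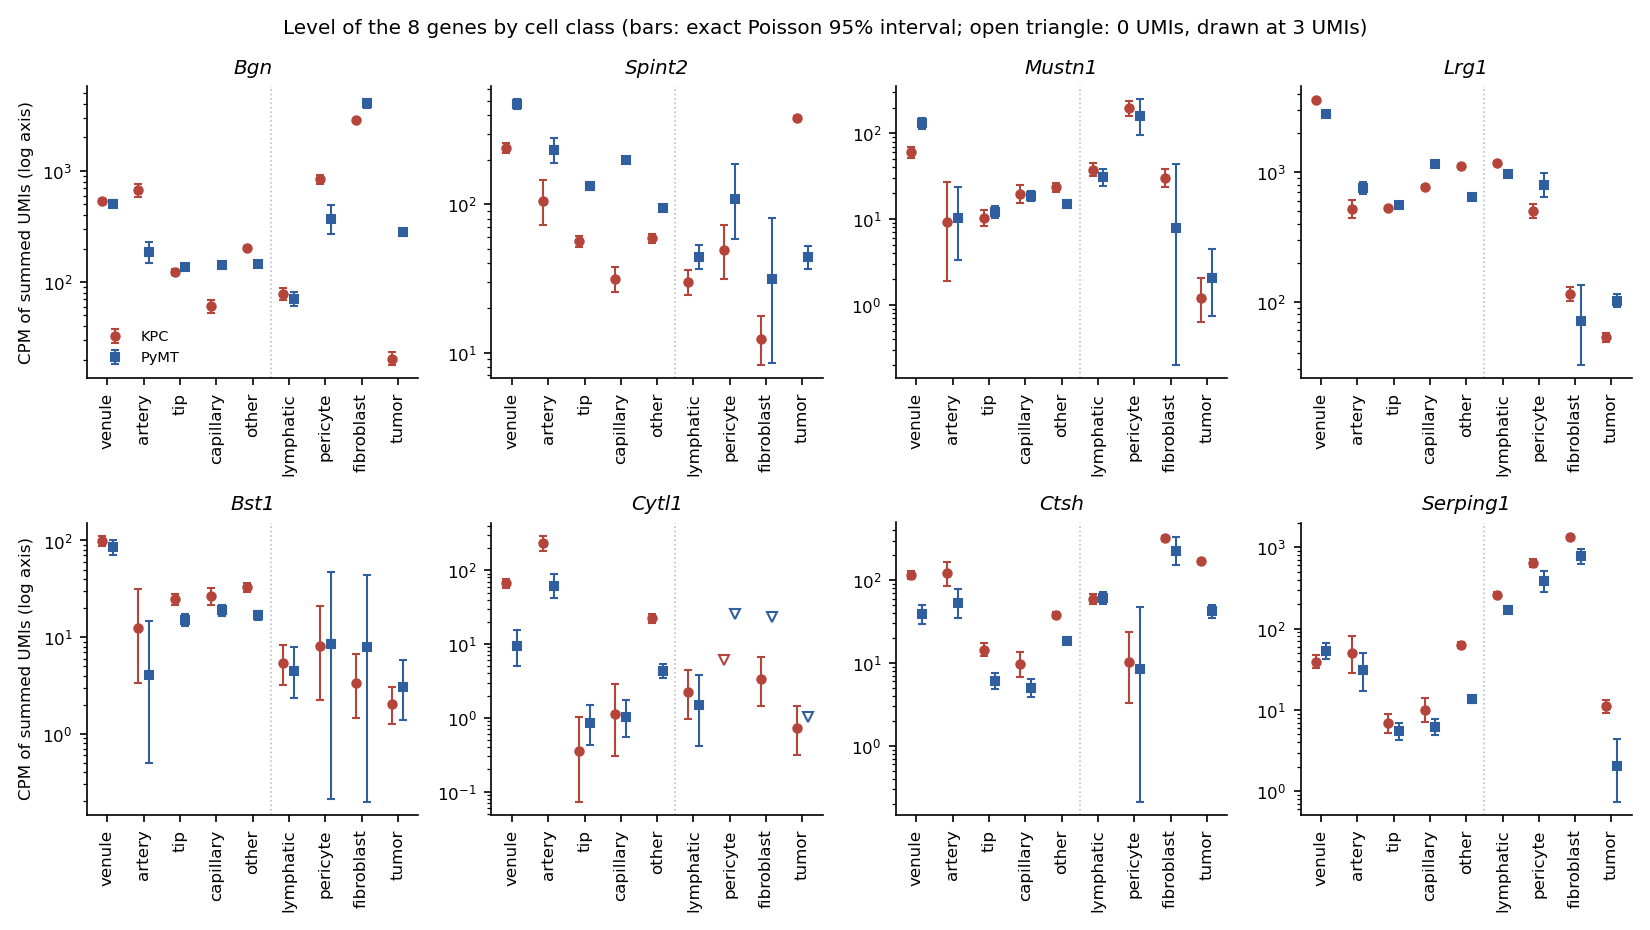
Level of each gene (CPM of summed UMIs, log axis) in the 9 cell classes of the KPC (red circles) and PyMT (blue squares) libraries, with exact Poisson 95% intervals; the dotted line parts the 5 blood vessel classes from the others, and an open triangle marks 0 UMIs, drawn at the level of 3 UMIs. Lrg1 and Bst1 peak in venule cells, Cytl1 in artery cells, and Bgn, Ctsh and Serping1 in fibroblasts of both libraries.

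Lrg1 was detected in nearly every venule cell. Its level was 3576 CPM (3508 to 3645) in KPC venule cells, against 519 in artery, 525 in tip, 770 in capillary and 1119 in other cells. In PyMT it was 2814 CPM (2730 to 2901) in venule cells, against 753 in artery, 559 in tip, 1158 in capillary and 640 in other cells. No blood vessel class reached the venule level in either library, and the next class was lymphatic in KPC (1184 CPM) and capillary in PyMT. A Lrg1 UMI was found in 98.8% of KPC and 98.3% of PyMT venule cells. At a common depth of 2000 UMIs per cell these shares were 95.7% and 95.4%, against 7.11% and 11.1% of tumor cells, whose median depths before thinning were 12688.5 and 6939 UMIs beside 3837 and 3486 in venule cells. Its level in tumor cells was 53.0 CPM in KPC and 102 in PyMT, and in fibroblasts 115 and 70.7 CPM. The venule class held 29.3% of all Lrg1 UMIs in KPC and 9.78% in PyMT, where the capillary class held 34.1%, and the other class held 35.3% and 31.5%.

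Bst1, the NAD-consuming surface enzyme, was also highest in venule cells, at lower counts. Venule cells held 99.7 CPM (88.6 to 112) in KPC, and the other 4 blood vessel classes lay between 12.4 and 32.7 CPM. In PyMT the venule level was 84.7 CPM (70.6 to 101) and the others lay between 4.10 and 18.9 CPM. Outside the blood vessels the level was at most 8.40 CPM, in PyMT pericytes, where it rested on 1 UMI. The share of venule cells with a Bst1 UMI was 33.1% in KPC and 25.0% in PyMT (20.1% and 14.7% at 2000 UMIs), beside 0.508% and 0.265% of tumor cells at 2000 UMIs. Venule cells from the 2 models differed by a log2 ratio of 0.24 (-0.07 to 0.55), an interval that holds 0.

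Mustn1 was highest in the pericyte class, named for the contractile cells around small vessels, and next in the venule class. In KPC its level was 197 CPM (160 to 241) in pericytes and 60.1 CPM (51.6 to 69.7) in venule cells, and in PyMT 160 CPM (96.1 to 249.3) in pericytes and 131 CPM (113 to 150) in venule cells. The PyMT intervals of these classes overlap and the KPC intervals do not. Artery cells held 3 Mustn1 UMIs in KPC (9.27 CPM) and 5 in PyMT (10.3 CPM), so the venule level was 6.48-fold and 12.7-fold higher, with log2 intervals of 1.12 to 4.99 and 2.42 to 5.31. A Mustn1 UMI was found in 18.4% of KPC and 31.9% of PyMT venule cells, and at 2000 UMIs in 11.6% and 18.9%, beside 0.635% and 0.265% of tumor cells. The pericyte classes held 119 cells in KPC and 27 in PyMT, of which 29 and 16 also met the rule of a later class. Pan-endothelial markers summed to 2363 and 3202 CPM in these classes, beside 3203 and 3146 CPM in venule cells. The pericyte classes therefore also carried endothelial transcripts. The part of this in the pericyte levels of Mustn1, Bgn and Serping1 was not tested. Pericyte markers summed to 167 CPM in KPC and 58.7 CPM in PyMT venule cells, against 9519 and 4521 CPM in pericytes, and 1 of their 8 genes was at 0 in venule cells of each library; their part in the venule level of Mustn1 was not tested.

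Spint2 was present across the blood vessel classes and, in KPC, also in the tumor cells. KPC venule cells held 240 CPM (223 to 259), artery cells 105, other cells 58.8, tip cells 56.1 and capillary cells 31.3 CPM. PyMT levels were higher throughout, with 475 CPM (440 to 511) in venule, 232 in artery, 199 in capillary, 132 in tip and 94.8 CPM in other cells. The tumor class was the highest class of KPC, with 382 CPM (370 to 393), but held 43.8 CPM (36.6 to 52.1) in PyMT. Markers of epithelial tumor cells that the rule did not use summed to 4507 CPM in the KPC tumor class but to 45.2 CPM in that of PyMT, below its pan-endothelial (507 CPM) and fibroblast (418 CPM) sums. Of these 6 markers, 5 were highest in the PyMT tumor class, at this low sum. The PyMT class is therefore less clearly made of epithelial tumor cells than that of KPC. The part of this in the Spint2 values was not tested. In epithelium Spint2 restrains membrane serine proteases, and the KPC and PyMT tumor classes differed in it by a log2 ratio of 3.12 (2.87 to 3.39). The KPC tumor class held 65.9% of all Spint2 UMIs of its library. A Spint2 UMI was found in 53.9% of KPC and 76.4% of PyMT venule cells, and at 2000 UMIs in 34.1% and 61.1%. The share at 2000 UMIs was 2.45% in KPC fibroblasts and 6.95% in PyMT lymphatic cells, classes with low Spint2 whose median depths before thinning were 4912 and 3462 UMIs.

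Bgn, a matrix proteoglycan, was highest in fibroblasts. These held 2877 CPM (2809 to 2946) in KPC and 4052 CPM (3709 to 4417) in PyMT, and pericytes 838 and 370 CPM. The fibroblast classes held 443 cells in KPC and only 28 in PyMT. Venule cells held 536 CPM (510 to 563) in KPC and 505 CPM (470 to 543) in PyMT, and these did not differ beyond counting error, with a log2 ratio of 0.08 (-0.04 to 0.21). The artery class did not keep one place: it held 674 CPM (587 to 770) in KPC, above the venule class, but 185 CPM (148 to 227) in PyMT, below it. Under a stricter filter of 1000 genes and 5% mitochondrial UMIs, the KPC log2 ratio of venule over artery went from -0.33 to 0.0079 (-0.25 to 0.27). KPC capillary cells held 60.7 CPM and PyMT capillary cells 141 CPM. Fibroblast markers summed to 54.6 CPM in KPC and 25.3 CPM in PyMT venule cells, against 14879 and 21004 CPM in fibroblasts, and in PyMT venule cells 3 of the 6 markers were at 0. Their part in the venule level of Bgn was not tested.

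Serping1 was also highest in fibroblasts (1331 CPM in KPC and 769 in PyMT), then pericytes (635 and 387) and lymphatic cells (261 and 171). Venule cells held 39.3 CPM (32.4 to 47.1) in KPC and 52.7 CPM (41.7 to 65.6) in PyMT, above tip cells (6.84 and 5.53) and capillary cells (10.1 and 6.22). Artery cells, with 49.5 CPM (28.3 to 80.3) and 30.8 CPM (17.2 to 50.7), could not be told from venule cells. KPC other cells were higher than venule cells, with 63.0 CPM (58.4 to 67.8). In a split added after these levels were seen, 205 of the 4089 KPC other cells had 0 or 1 UMI of Pecam1, Cdh5, Kdr, Tie1, Cldn5 and Egfl7 together and held 1281 CPM of Serping1, 3616 CPM of Dcn (a fibroblast marker) and 2118 CPM of Lyz2 (a myeloid marker). The other 3884 cells held 23.3 CPM (20.5 to 26.3) of Serping1, below the 39.1 CPM (32.3 to 47.0) of venule cells under the same filter.

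Ctsh, a lysosomal protease, did not part venule from artery cells. KPC venule cells held 116 CPM (104 to 129) and artery cells 121 CPM (85.7 to 165), and PyMT venule cells held 38.7 CPM (29.4 to 49.98) and artery cells 53.3 CPM (34.8 to 78.1). Under a stricter filter, with 1000 genes or more and less than 5% of mitochondrial UMIs, the log2 ratio of venule over artery was 0.91 (0.14 to 1.80) in KPC and -1.30 (-2.20 to -0.38) in PyMT, so the order of these classes depended on the filter. Both classes were above tip cells (14.5 and 6.15 CPM) and capillary cells (9.79 and 5.04 CPM). Fibroblasts were the highest class in both libraries, with 319 and 228 CPM, where the PyMT value rested on 29 UMIs in 12 of 28 cells. KPC tumor cells held 169 CPM and PyMT tumor cells 42.4 CPM. Lymphatic cells held 58.8 CPM in KPC and 61.1 CPM in PyMT, and this put them below venule cells in KPC and above them in PyMT.

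Cytl1 went against the label of a venule gene: in both libraries its highest class was artery. KPC artery cells held 235 CPM (185 to 294) and venule cells 66.9 CPM (57.9 to 77.0), and PyMT artery cells held 61.5 CPM (41.5 to 87.8) and venule cells 9.33 CPM (5.10 to 15.7). The artery levels rested on 76 UMIs in 15 KPC cells and 30 UMIs in 6 PyMT cells, and the intervals do not cover the spread between cells. The artery class held 13.7% and 18.3% of all Cytl1 UMIs, and the other class 45.3% and 56.1%. The artery level was 3.51-fold the venule level in KPC and 6.59-fold in PyMT, and none of the other 7 genes was at least 2-fold higher in artery than in venule cells, a call that 6.46% of the genes with at least 50 UMIs met in KPC and 4.36% in PyMT, where Cytl1 itself missed this minimum. Under the filter of 1000 genes and 5% mitochondrial UMIs the log2 ratio of venule over artery went from -1.81 to -0.74 (-1.38 to -0.03) in KPC, where the 2-fold call was lost, and from -2.72 to -4.32 (-6.31 to -2.79) in PyMT. Tip and capillary cells held 0.35 and 1.12 CPM in KPC and 0.85 and 1.02 CPM in PyMT. A Cytl1 UMI was found in 6.72% of KPC venule cells, or 3.75% at 2000 UMIs, beside 0.163% of lymphatic cells, whose median depth before thinning was 3497 UMIs. There were 0 UMIs in KPC pericytes, where 3 UMIs would make 6.11 CPM, and 0 UMIs in PyMT pericytes, fibroblasts and tumor cells, where 3 UMIs would make 25.2, 23.6 and 1.02 CPM.

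**Figure D2:**
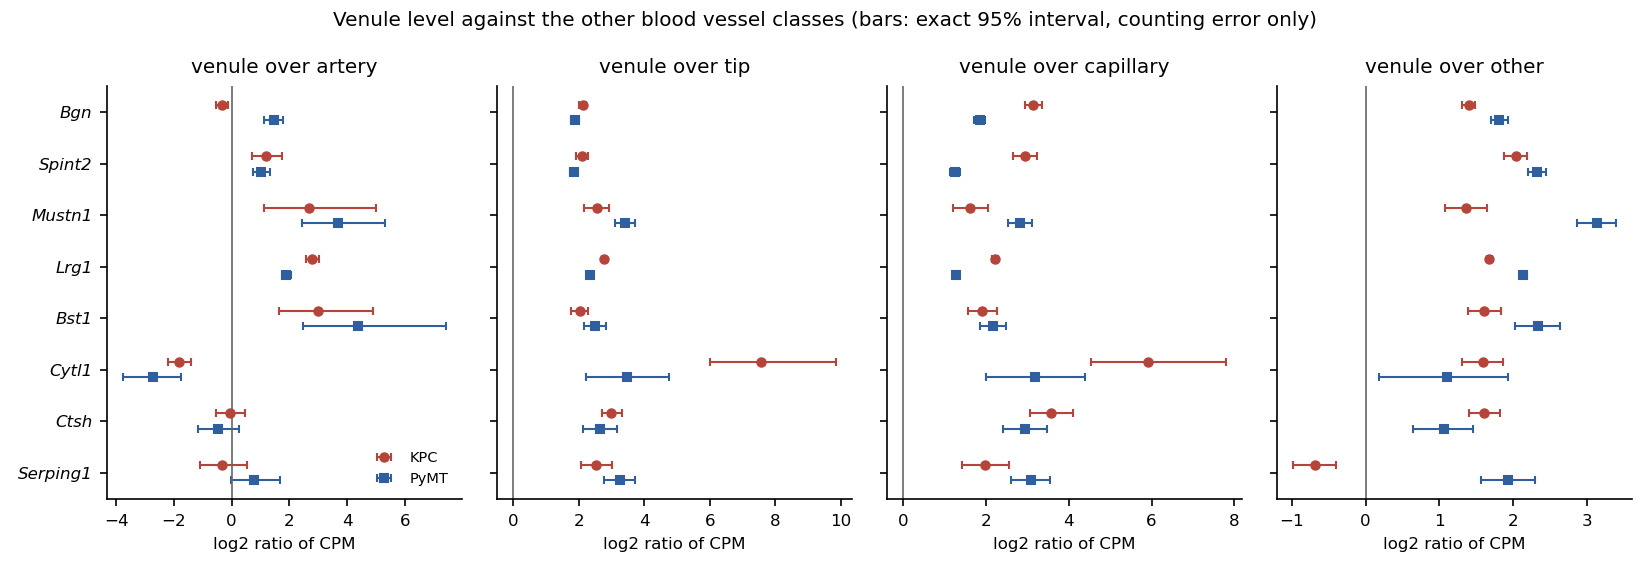
Log2 ratio of the venule level over the artery, tip, capillary and other levels for each gene in KPC (red circles) and PyMT (blue squares), with exact 95% intervals for counting error. All ratios over tip and capillary cells lie above 0, while Cytl1 lies below 0 against artery cells in both libraries and Serping1 lies below 0 against other cells in KPC only.

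Against capillary cells, the most numerous named blood vessel class of PyMT, all 8 genes were at least 2-fold higher in venule cells of both libraries, a call met by 2.38% of all genes in KPC and 3.56% in PyMT. The rule used this contrast. The smallest ratio was that of Spint2 in PyMT (2.39-fold) and the largest that of Cytl1 in KPC (59.8-fold, log2 interval 4.52 to 7.79), which rested on 4 UMIs in capillary cells. Cytl1 in PyMT had 14 UMIs in venule and 13 in capillary cells, under the minimum of 50 that the other 7 genes passed. The median log2 ratio of venule over capillary was 2.58 over the 8 genes in KPC and 2.49 in PyMT, beside -0.05 and 0.03 over all genes. Against artery cells it was 0.57 and 1.24, beside 0.01 and 0.05.

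Between the 2 tumor models, venule cells differed at least 2-fold in 3 of the 8 genes, against 3.54% of all genes. Cytl1 was 7.17-fold higher in KPC (log2 ratio 2.84, 2.06 to 3.74) and Ctsh 2.99-fold higher in KPC (1.58, 1.18 to 2.01). Mustn1 was 2.17-fold lower in KPC (log2 ratio -1.12, -1.42 to -0.82). Spint2 was just inside the 2-fold limit, with a log2 ratio of -0.98 (-1.13 to -0.83). Bgn, Bst1, Lrg1 and Serping1 lay within a log2 ratio of -0.42 and 0.35. Ctsh was also higher in KPC artery, tip, capillary and other cells (log2 ratios 0.96 to 1.24) but not in lymphatic cells (-0.05, -0.36 to 0.25). Spint2 was lower in KPC in all 5 blood vessel classes and lowest relative to PyMT in capillary cells (-2.67, -2.95 to -2.39), the class whose marker check differed between the libraries.

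A split of these cells by Nr2f2 repeats the contrast behind the choice of the genes, so nothing is read from its ratios. Blood vessel cells with a Nr2f2 UMI numbered 1191 in KPC and 1627 in PyMT, and those without numbered 6242 and 9050. A Nr2f2 UMI was found in 44.8% of KPC and 35.6% of PyMT venule cells, so most venule cells fell in the group without. In KPC the level with Nr2f2 over that without had a log2 ratio of 0.91 for Bgn, 0.90 for Ctsh, 0.85 for Mustn1, 0.82 for Lrg1, 0.73 for Spint2 and 0.70 for Bst1. The intervals of Cytl1 (0.15, -0.15 to 0.43) and Serping1 (0.11, -0.11 to 0.32) held 0. In PyMT the ratios ran from 0.30 for Bst1 to 0.78 for Mustn1, except for Cytl1 with 0.09 (-0.53 to 0.66). Cells with a Nr2f2 UMI were deeper, with a median of 4191 against 2389.5 UMIs in KPC and 4653 against 3805 in PyMT. The part of depth and of undetected Nr2f2 in these ratios was not tested. Nr2f2 itself was 143 CPM in KPC venule cells and 21.6 CPM in artery cells, and 120 and 8.20 CPM in PyMT. It was higher still in lymphatic cells (236 and 180 CPM), where of the 8 genes Serping1 in both libraries and Ctsh in PyMT exceeded their venule level.

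Within the venule class the genes were not evenly spread. Of the KPC cells, 60 had Ackr1 and no Selp UMI, 391 had both and 189 had Selp and no Ackr1 UMI, and in PyMT these were 47, 233 and 80 cells. All 8 genes were higher in cells with Ackr1 only than in cells with Selp only in KPC, with intervals apart, and 5 of 8 were in PyMT (Bgn, Mustn1, Lrg1, Bst1 and Serping1). Nr2f2, by which the genes were chosen, itself stood at 266 CPM (194 to 356) against 86.7 CPM (70.1 to 106) in this KPC split and at 119 CPM (69.6 to 191) against 88.2 CPM (63.0 to 120) in PyMT, so the choice bears on these counts and nothing is read from them. Intervals lay apart in this direction for 3.97% of 3808 genes in KPC and 3.96% of 1921 in PyMT that had at least 50 UMIs in these cells, a minimum that Mustn1 and Serping1 missed in KPC and Bst1, Cytl1, Ctsh and Serping1 missed in PyMT. The steepest was Serping1, with 154 CPM (101 to 225) against 6.39 CPM (2.57 to 13.2) in KPC and 105 CPM (59.0 to 174) against 11.03 CPM (3.58 to 25.7) in PyMT. Ctsh stood at 414 CPM (323 to 524) against 34.7 CPM (24.5 to 47.6) in KPC, and at 49.2 CPM (19.8 to 101) against 8.82 CPM (2.40 to 22.6) in PyMT, where the intervals overlap. Mustn1 stood at 124 against 22.8 CPM in KPC and at 211 against 68.4 CPM in PyMT. Lrg1 differed less, with 4475 against 2437 CPM in KPC and 3892 against 1945 CPM in PyMT. Cells with Selp only were deeper (median 4792 against 2395.5 UMIs in KPC and 5116.5 against 2632 in PyMT), and the part of depth in the split was not tested.

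**Figure D3:**
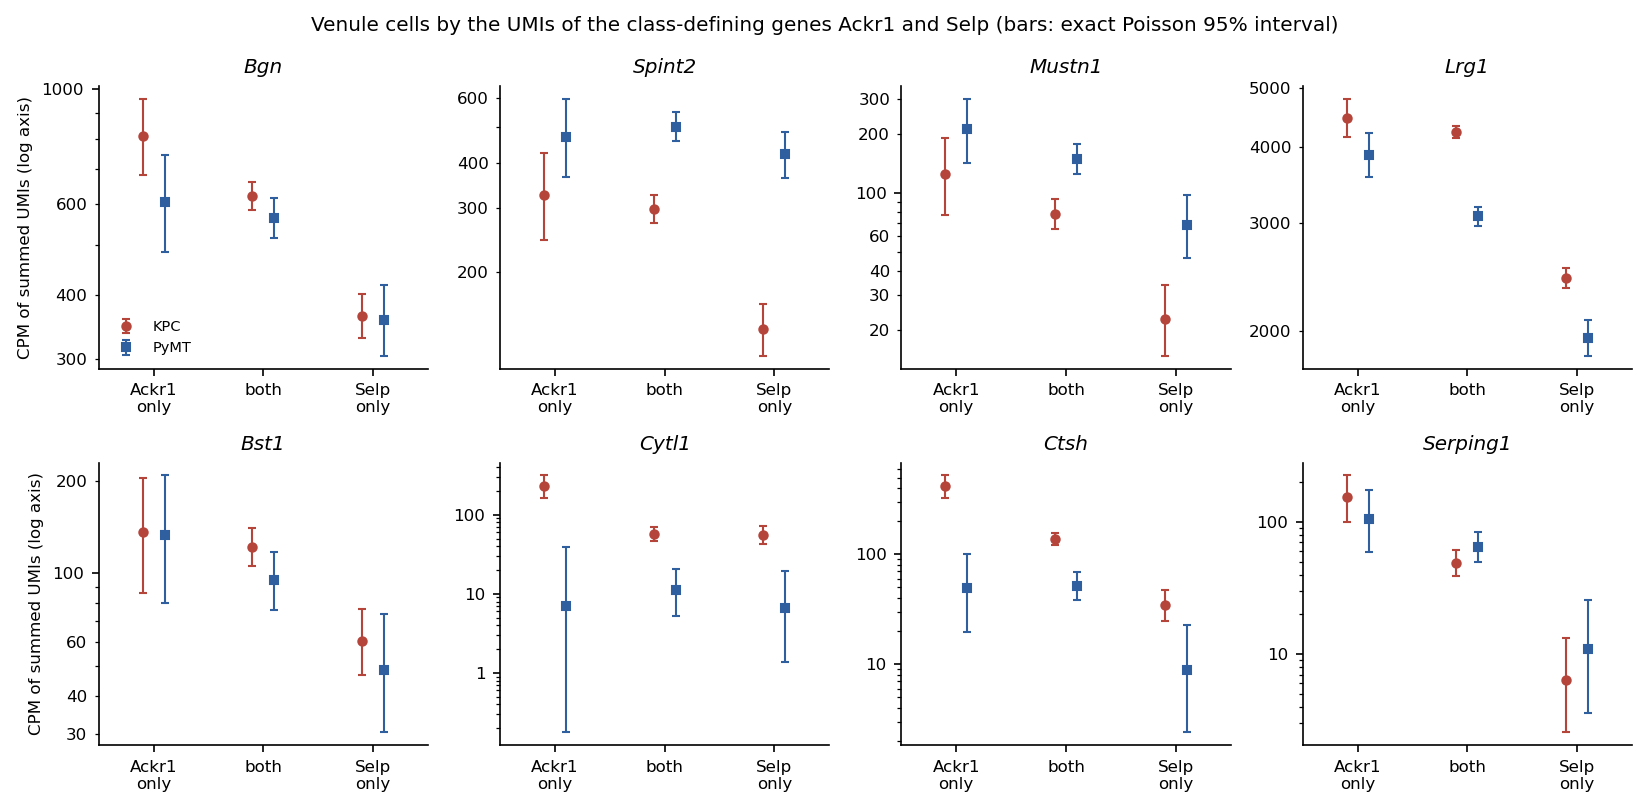
Level of each gene (CPM, log axis) in venule cells with Ackr1 and no Selp UMI, with both, and with Selp and no Ackr1 UMI, in KPC (red circles) and PyMT (blue squares), with exact Poisson 95% intervals. Serping1 falls from 154 to 6.39 CPM in KPC and from 105 to 11.03 CPM in PyMT, while Spint2 in PyMT stays between 421 and 502 CPM.

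Madcam1, the addressin of mucosal venules, gave another division in KPC, where 241 venule cells held a UMI of it and 399 did not. Cells with Madcam1 had more Lrg1 (4684 CPM, 4553 to 4817, against 2965 CPM, 2888 to 3044) and more Spint2 (295 against 210 CPM). Cytl1 went the other way, with 24.0 CPM (15.5 to 35.4) in cells with Madcam1 and 90.6 CPM (77.6 to 105) in cells without. Ctsh was 117 and 115 CPM, and Serping1 37.5 and 40.3 CPM, with overlapping intervals. Nr2f2, by which the genes were chosen, was itself higher in cells with Madcam1 (171 CPM, 147 to 198, against 128 CPM, 113 to 145). The choice therefore bears on the higher levels in this split, and nothing is read from them. The share of all genes was not taken for it. In PyMT, 5 venule cells held a Madcam1 UMI, too few for the same comparison. Venule cells that met no other class rule had a higher level of each gene than the whole class. In KPC they held 4315 CPM of Lrg1, 101 CPM of Cytl1 and 155 CPM of Ctsh, and in PyMT 184 CPM of Mustn1 and 87.3 CPM of Serping1. Some gaps were within counting error, as for Spint2 in PyMT (483 CPM, 425 to 547, against 475 CPM, 440 to 511). These cells were shallower (median 3342.5 against 3837 UMIs in KPC and 2311 against 3486 in PyMT). The part of depth was not tested. Nr2f2 was also higher in these cells than in the whole class (170 against 143 CPM in KPC and 130 against 120 CPM in PyMT), with overlapping intervals. The choice of the genes therefore bears on this contrast too. The share of all genes was not taken for it, and nothing is read from it.

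To see whether the genes marked the same venule cells, each cell was thinned to 2000 UMIs, which left 533 KPC and 285 PyMT cells, and cells with a UMI of both genes of a pair were counted against the product of the 2 shares. In KPC, 15 cells held both Cytl1 and Ctsh, where the product gives 2.96, a ratio of 5.06. Cytl1 and Serping1 shared 6 cells (ratio 5.92), Cytl1 and Mustn1 9 cells (3.87), Mustn1 and Serping1 10 cells (3.18), and Ctsh and Serping1 11 cells (2.75). In PyMT, Ctsh and Serping1 shared 8 cells (5.43), Mustn1 and Ctsh 6 (2.11) and Mustn1 and Serping1 10 (1.88). Cytl1 was found in 2 of the thinned PyMT cells, so its pairs could not be read there. Pairs with Lrg1, found in nearly all cells, lay between 0.97 and 1.05 in KPC and in PyMT, and Bgn with Spint2 at 1.12 and 1.06. The ratio of a pair is capped by the larger of its 2 shares, so pairs with Lrg1 could not give a high ratio. Only pairs of genes found in few cells can do so. Bst1 with Serping1 was at 0.92 in KPC and 1.45 in PyMT. Spint2 with Ctsh was at 1.30 in KPC and 0.55 in PyMT, and Spint2 with Serping1 at 1.63 and 0.82. The correlation of detection over cells (phi) differed less between pairs than the ratio. Within Cytl1, Ctsh, Serping1 and Mustn1 of KPC it ran from 0.169 (Ctsh with Serping1) to 0.334 (Cytl1 with Ctsh). For Bgn with Ctsh in KPC, at a ratio of 1.38, it was 0.165. Ctsh and Serping1 were highest in fibroblasts and Mustn1 in pericytes, and doublets were not removed. The part of doublets in the shared cells was not tested. At least 4 of the 8 genes were found in 15.4% of thinned KPC and 18.6% of thinned PyMT venule cells, against 0.57% to 5.97% and 0.72% to 3.74% in the other blood vessel classes. The choice of the genes bears on this contrast between classes, so nothing is read from it.

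**Figure D4:**
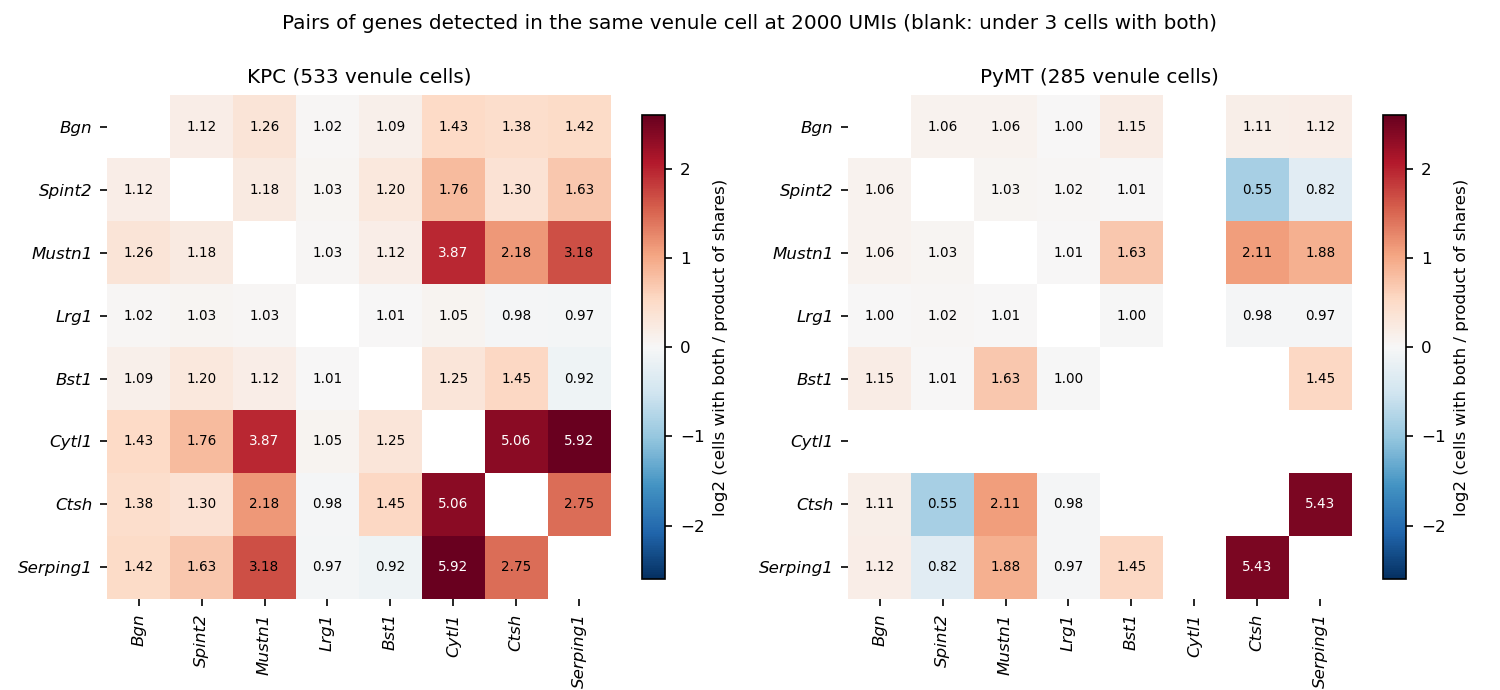
Number of venule cells with a UMI of both genes over the number that the product of the 2 shares gives, printed in each square and colored on a log2 scale, for KPC (533 cells) and PyMT (285 cells) thinned to 2000 UMIs; squares with under 3 cells are blank. Cytl1, Ctsh, Serping1 and Mustn1, each found in a minority of cells, form the darkest block in KPC. Pairs with Lrg1 lie near 1 in both libraries, where its high share leaves no room for a high ratio.

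Cytl1 was concentrated in few cells. Of 7433 KPC blood vessel cells, 124 held a Cytl1 UMI, and the 82 cells with 2 or more (1.10%) held 92.1% of the 530 Cytl1 UMIs of these cells, with up to 29 in a cell. Of 10677 PyMT blood vessel cells, 37 with 2 or more (0.347%) held 89.4% of 160 UMIs. Cells with 2 or more Cytl1 UMIs were set beside cells with none in each class that had at least 5 of them, a split chosen after the levels were seen. These cells fell in venule (31), artery (11) and other (38) cells of KPC and in artery (6) and other (22) cells of PyMT. They were shallower than the cells with none (median 1990 against 3972 UMIs in KPC venule cells and 1185 against 3389 in PyMT other cells).

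The cells with Cytl1 carried more Ctsh and Bgn in every one of these 5 groups. In KPC venule cells they also carried more Lrg1 (7271 against 3459 CPM), Mustn1 (364 against 52.0), Serping1 (350 against 28.5) and Spint2 (448 against 233). Bst1 did not differ there (98.1 against 98.0 CPM). Nr2f2, by which the genes were chosen, was higher in this group as well, so the choice bears on it and nothing is read from its levels. The share of all genes that were higher in cells with Cytl1 was not taken in any of the 5 groups. The part of depth was not tested either. Whether the higher levels are particular to these genes is therefore not known. In KPC, Ctsh was 1429 CPM (1165 to 1735) against 78.7 in venule cells, 821 CPM (494 to 1282) against 44.7 in artery cells and 2102 CPM (1746 to 2510) against 25.8 in other cells. In PyMT it was 900 CPM (524 to 1441) against 19.2 in artery cells and 1343 CPM (1022 to 1732) against 14.7 in other cells. Bgn was 3413 against 416 CPM in KPC artery cells, 2277 against 100 CPM in PyMT artery cells, and 1849 against 501 CPM in KPC venule cells. Vwf (von Willebrand factor, a marker of larger vessels and veins) was 1569 against 211 CPM in KPC venule cells and 1080 against 200 CPM in KPC artery cells. The KPC artery cells with Cytl1 held 691 CPM of Gja5, a gene of the class rule, 1728 CPM of the artery marker Stmn2 and 0 UMIs of Nr2f2 (3 UMIs would make 130 CPM). KPC artery cells with no Cytl1 UMI held 24.1 CPM of Nr2f2, below that limit, so the 0 does not set the cells with Cytl1 apart. The KPC venule cells with Cytl1 held 420 CPM of Nr2f2 and 0 UMIs of Gja5 (3 UMIs would make 42.0 CPM). Among KPC cells with no Cytl1 UMI, Bgn was 416 CPM (345 to 497) in artery and 501 CPM (475 to 528) in venule cells, and Ctsh was 44.7 CPM (23.8 to 76.5) and 78.7 CPM (68.7 to 89.8), with intervals that overlap for both genes. The higher level of Bgn in the KPC artery class was therefore not seen without the 14.3% of its cells that held a Cytl1 UMI.

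**Figure D5:**
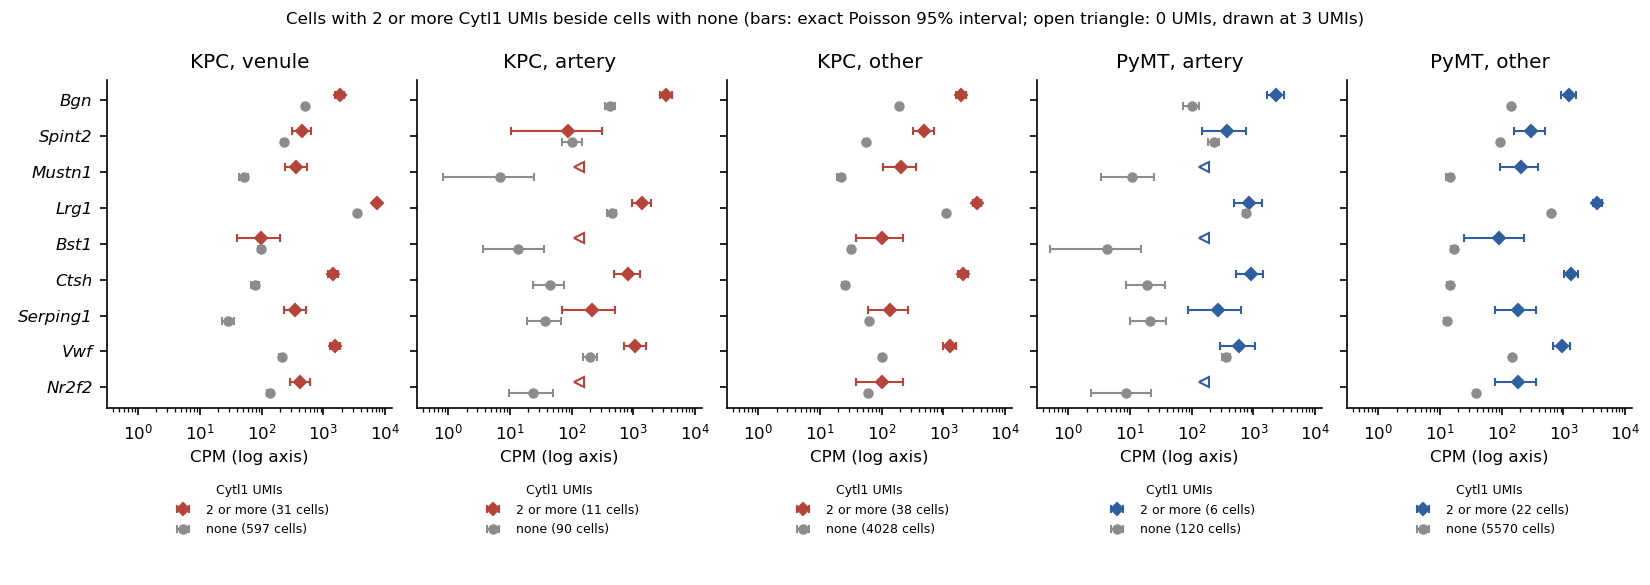
Level of 7 of the genes, Vwf and Nr2f2 (CPM, log axis) in cells with 2 or more Cytl1 UMIs (colored diamonds) and with none (gray circles), by library and class, with exact Poisson 95% intervals; an open triangle marks 0 UMIs, drawn at the level of 3 UMIs. Ctsh and Bgn lie to the right in the colored cells of all 5 panels. Nr2f2 is at 0 UMIs in the artery cells with Cytl1 of both libraries, and is also low in KPC artery cells with none (24.1 CPM).

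Genes with the pattern most like each of the 8 were taken from the 18 class levels of both libraries, as log2(CPM + 1), among 9434 genes with at least 200 UMIs in each library. The 18 points share libraries and class rules, so Pearson's r is a description across genes and classes. For Lrg1 the nearest were Arrb1 (r = 0.95), Gpr146 (0.93) and Calcrl (0.92). Mustn1 lay nearest to Rab2b (0.96), Bmyc (0.88) and Samhd1 (0.85), and Bst1 to Ehd3 (0.90), Dusp23 (0.88) and Aplnr (0.85), the apelin receptor. For Spint2 they were 2200002D01Rik (0.93), Gpx1 (0.83) and Plpp2 (0.78), for Bgn Sec31a (0.87), Fstl1 (0.86) and Ryk (0.83), and for Serping1 Tppp3 (0.90), Col5a2 (0.89) and Ctsf (0.88). Ctsh lay nearest to Igfbp4 (0.88), Neat1 (0.82) and Fbln2 (0.79). Cytl1 lay nearest to Alas1 (0.86), to the artery marker Stmn2 (0.80) and to the growth factor gene Bmp4 (0.75). Among the 8 genes themselves, r was highest for Lrg1 with Bst1 (0.73) and lowest for Spint2 with Serping1 (-0.44).

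Other genes of the same families were read in venule against capillary cells from lists chosen by function. Of the complement C1 and regulator genes, 2 of 3 with at least 50 UMIs were at least 2-fold higher in KPC. Cd55, which speeds the decay of complement convertases, was 45.1 against 3.63 CPM in KPC and 35.3 against 8.50 CPM in PyMT, and Masp1, a lectin pathway protease, was 35.5 against 4.75 CPM in KPC. In PyMT, Cd59a (61.3 against 25.0 CPM) and Cfb (9.33 against 3.94 CPM) were also at least 2-fold higher. Of the gp130 receptor and acute-phase genes, 1 of 7 was at least 2-fold higher in KPC (Il6st, the gp130 chain itself, 216 against 86.1 CPM) and 4 of 8 in PyMT (Il6st, Lifr, Osmr and Hp, with Il6st at 291 against 53.1 CPM). Il6st was also among the venule markers of the class check, so its higher venule level is counted there too. Osmr went the other way in KPC (54.0 against 93.1 CPM), by less than 2-fold. Over all genes with at least 50 UMIs the share at least 2-fold higher was 2.38% in KPC and 3.56% in PyMT. No gene of these lists with at least 50 UMIs was at least 2-fold lower.

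Relatives of Ctsh and Bst1 mostly did not follow them, and most listed relatives of Bgn and Spint2 had too few UMIs to be read. Of the cysteine cathepsins and cystatins, 0 of 8 passed 2-fold in KPC, where Ctsb was 818 against 721 CPM and Ctsl 363 against 486 CPM. In PyMT, 1 of 9 was higher (Ctsf, 8.67 against 3.46 CPM) and 2 were lower (Ctsw and Cst6, each 3.33 against 7.48 CPM on 5 venule UMIs). Cd38, the closest relative of Bst1 and its neighbor in function, was not 2-fold apart, with 172 against 277 CPM in KPC and 165 against 219 CPM in PyMT. Of the 4 NAD ectoenzymes counted, 1 was lower in KPC (Art3, 5.81 against 15.4 CPM) and none in PyMT. Of the 9 small leucine-rich proteoglycans other than Bgn, 2 in KPC and 3 in PyMT had at least 50 UMIs. Dcn was higher in KPC (32.8 against 11.5 CPM) and lower in PyMT (0.67 against 5.75 CPM, on 1 venule UMI, with a log2 interval of -8.43 to -0.58). Prelp was higher in PyMT (15.999 against 4.57 CPM). Of the 8 Kunitz inhibitors and their protease partners only Met had at least 50 UMIs. It passed 2-fold in KPC alone, with 10.9 against 5.03 CPM in KPC and 7.999 against 4.33 CPM in PyMT. At least 2-fold lower levels in venule than in capillary cells were found for 4.8% of all genes in KPC and 2.7% in PyMT.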

How the data were processed

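The authors aligned the reads of both libraries to mm10 with Cell Ranger (version 3.0 in the submitters' processing notes, 3.0.2 in the matrix headers) and deposited raw UMI counts for each gene and barcode, not yet scaled, from which cells of other types had not been taken out. The paper names the 10x kit as v3 in one place and as v2 in another. KPC held 44441942 UMIs in 10236 barcodes and PyMT 55547926 in 12464, of which 645 and 720 were removed by the filter on genes and mitochondrial UMIs, and 170 barcode sequences occurred in both libraries.

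Class rules (summed UMIs, in order) were Krt8 and Krt18 at least 5 (tumor), Col1a1 and Col1a2 at least 10 (fibroblast), Mmrn1 and Prox1 at least 3 (lymphatic), Notch3 and Higd1b at least 2 (pericyte), Ackr1 and Selp at least 3 (venule), Gja5 and Sema3g at least 2 (artery), Apln and Angpt2 at least 3 (tip) and Car4 and Cd300lg at least 2 (capillary). No doublet caller was run. Sums per class were scaled to CPM with exact Poisson intervals, ratios had exact intervals from both sums, and shares had Clopper-Pearson intervals (Python 3.11.15, numpy 2.4.6, scipy 1.17.1, pandas 2.3.3, seed 1), which were tested on simulated counts. Genes of the class rule and mitochondrial genes were left out of counts over all genes, which took genes with at least 50 UMIs in the classes compared. A level at 0 is given with the level that 3 UMIs would make.

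The genes and lists were chosen with earlier results of these data known. Named genes are the 8, Nr2f2, genes of the class rule, the 3 genes most like each by class profile, and genes of the lists past 2-fold, of which 1 is not reported here; Ctsb, Ctsl, Cd38, Met, Vwf, Madcam1, Stmn2, Dcn and Lyz2 were named in addition after their values were seen. Alternatives changed the cell filter, the depth, the class thresholds and order, cells of more than 1 class, immune cells, the deepest cells and the weight of cells.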

Additional observations from a re-analysis of the deposited data

Results flagged for a closer look

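In 5 comparisons the venule class lay on opposite sides of another class in the 2 tumor models. With 1 library per model the difference between the models was not tested, and tumor model and library cannot be told apart. The log2 ratio of Bgn over artery cells was -0.33 in KPC and 1.45 in PyMT, and over pericytes -0.65 and 0.45. The PyMT ratio over pericytes had an interval of 0.01 to 0.92, on 44 UMIs in 27 pericytes. The intervals of these PyMT levels overlap, so this reversal is near a tie. Spint2 over tumor cells was -0.67 in KPC and 3.44 in PyMT, where tumor markers in the tumor class summed to 4507 and 45.2 CPM. Ctsh over lymphatic cells was 0.98 in KPC and -0.66 in PyMT. Serping1 over other cells was -0.68 in KPC and 1.93 in PyMT. In KPC cells with no Cytl1 UMI, Bgn was 416 CPM in artery and 501 CPM in venule cells, and in cells with 2 or more endothelial UMIs Serping1 was 23.3 CPM in other and 39.1 CPM in venule cells. Both splits were chosen after the levels were seen.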

How the results depend on the processing

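The counts of genes that were followed stayed within 1.5 times their values in all 65 alternatives. A venule interval lay above the other blood vessel classes for 4 to 5 genes in KPC and 5 to 6 in PyMT. The venule cells of both models differed for 2 to 3 genes. These counts do not cover the call of a 2-fold higher artery level, which Cytl1 lost in KPC. Over 144 alternatives the ratio of venule over capillary moved beyond its interval in 34 and turned in none. Over artery it moved in 21 of 143, and of the ratios whose interval lay clear of 0, 1 turned: Bgn in KPC was at 0.0079 (-0.25 to 0.27) when cells needed 1000 genes and less than 5% of mitochondrial UMIs. Ratios over artery whose interval held 0 also changed sign: Ctsh ran from -0.07 to 0.91 in KPC and from -1.30 to 0.35 in PyMT over the alternatives, and Serping1 in KPC reached 0.04 with a venule class from 5 UMIs. Cytl1 over artery went from -1.81 to -0.74 in KPC, losing the 2-fold call, and from -2.72 to -4.32 in PyMT under the filter named for Bgn. The causes were not tested. Thinning to 2000 UMIs moved 15 of the 16 shares of venule cells with a UMI. The alternative that kept cells with 2 or more endothelial UMIs was added after the data were seen. It changed the sign of no ratio over artery or capillary, but put Serping1 in KPC venule cells (39.1 CPM) above other cells (23.3 CPM). No paired analysis was possible because each tumor model has 1 library. Depth limits Cytl1, with 14 UMIs in PyMT venule cells, and Mustn1 and Bst1 in artery cells, with 2 to 5 UMIs.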
